A study of Homo sapiens with 8 samples.

Results

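Kasumi-1, an established cell line from a human acute myeloid leukaemia, carries the t(8;21) translocation, which joins the transcription factor gene RUNX1 to RUNX1T1, a gene that encodes the corepressor called ETO. The arrays described here are the 4 of 8 in the study whose cells were electroporated with 200 nM of a mismatch siRNA (siMM), which is the control for the siRNA (siRE) that targets the fusion mRNA. Within siMM, the arrays of 96 and 168 h (the mid times) were set against those of 48 and 240 h (the outer times), with 2 arrays a side. The 48 h and 96 h cells had 1 electroporation, the 168 h cells 2 and the 240 h cells 3. The last electroporation lay 48 h before the 48 h array, 96 h before the 96 h array and 72 h before each of the other 2, so the 168 h and 240 h arrays share that interval. The siRE arrays have the same times and numbers of electroporations. All cells were grown in RPMI1640 with 10% foetal calf serum, and each time point of each siRNA has 1 array.

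The grouping into mid and outer times was chosen by the levels seen on the siMM arrays themselves, and the genes named from it were selected on the same values. Differences within siMM are therefore given as descriptions, with no test, and their counts show nothing beyond these arrays. The same contrast within the 4 siRE arrays did not choose the grouping and was tested, although the movement of some genes in siRE was also known beforehand. Values are the authors' normalized values, treated as log2; a fold below holds only for a plain log2 scale. Nothing in the labels says what besides time and electroporation differed between the cultures, or whether the times came from separate cultures.

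Cells that run short of oxygen stabilise the hypoxia-inducible factors HIF1A and HIF2A, which pair with ARNT and switch on genes of glucose uptake, glycolysis, mitophagy and collagen modification. HIF1A itself is regulated mainly through its protein, so its transcript need not move with its targets. Leukaemia lines in suspension are known to depend on glycolysis, and genes of glucose sensing, such as TXNIP, and immediate-early genes, such as EGR1 and JUN, also answer to medium, serum and handling.

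As a check of the labels, RUNX1T1 (ILMN_1812795, chromosome 8) read 8.86, 9.23, 8.72 and 8.65 in siMM at 48, 96, 168 and 240 h, and between 7.18 and 7.81 in siRE, so that every siMM array lay above every siRE array. In siMM the mid and outer times of RUNX1T1 overlapped, and RUNX1 stood at a difference of 0.00. The defining genes MPO, CD34, KIT and CD4 were above background on all 4 siMM arrays, whereas CD38 was above it on 1 and PTPRC, the common leukocyte antigen, on 0. Of 34 markers of other cell types 31 had a probe, and 23 of these were above background on no siMM array; CSF1R, CD79B and the epithelial marker EPCAM were above it on all 4. Summed over all 31, the linear level was 4317 and 4621 at the outer times and 4021 and 4323 at the mid times. This sum includes the 23 that were above background on no siMM array. CSF1R was higher by 0.54 at the mid times and CD4 by 0.62. The part of other cell types in the results was not tested. Over 14644 probes above background the mid arrays correlated at 0.9878 with each other, the outer arrays at 0.9884, and mid with outer arrays at 0.9812 to 0.9841 (Pearson, across probes that are not independent).

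The 8830 genes were above background on at least 2 of the 8 arrays of both arms. Of these, 32 were higher at the mid times by 2-fold or more with no overlap between the sides (0.362% of genes), and 0 were lower by that much (0%). Without the size limit 2008 genes were higher (22.7%) and 2085 lower (23.6%), so the higher side held the large differences and both sides held similar numbers. The median difference of all genes was 0.01. Leaving out the 168 h array gave 53 genes higher and 11 lower, leaving out the 48 h array gave 35 and 9, and leaving out the 96 h array gave 29 and 2.

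The 12 genes with the largest difference upwards were led by PLIN2, which coats lipid droplets (ILMN_2138765, chromosome 9). It read 9.35 and 9.51 at 48 and 240 h, and 11.74 and 11.30 at 96 and 168 h. The mid times were higher by 2.09, or 4.26-fold, and its other probe stood at 1.93. ADM, the secreted peptide adrenomedullin (chromosome 11), read 6.04 and 6.12 at the outer times, close to background, and 8.17 and 7.80 at the mid times, a difference of 1.91. ANKRD37, an ankyrin repeat protein known as a target of hypoxia-inducible factors (chromosome 4), was above background at 96 and 168 h alone, with 7.33 and 7.39 against 5.63 and 5.49. It was therefore at least 2.75-fold higher at the mid times. In all 3 genes the outer arrays lay within 0.16 of each other, but for ANKRD37 both were below background. Among the 12, only KLF2, TXNIP and GPRC5C differed by more between the outer arrays, by 0.94, 0.90 and 0.49. An effect of the number of electroporations was not tested.

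Hypoxia-inducible factors bind the core motif ACGTG or GCGTG, and PLIN2, ADM and ANKRD37 moved together on the siMM arrays. The promoters of these 3 genes are therefore shown. The sequences are RefSeq's (GRCh38.p14), from 250 bases before to 50 after the start site, on the gene's strand, for chr9:19127443-19127742 (minus strand), chr11:10304823-10305122 (plus strand) and chr4:185396591-185396890 (plus strand). Capitals mark the core motif on either strand; overlapping matches join to the palindrome CACGTG.
PLIN2: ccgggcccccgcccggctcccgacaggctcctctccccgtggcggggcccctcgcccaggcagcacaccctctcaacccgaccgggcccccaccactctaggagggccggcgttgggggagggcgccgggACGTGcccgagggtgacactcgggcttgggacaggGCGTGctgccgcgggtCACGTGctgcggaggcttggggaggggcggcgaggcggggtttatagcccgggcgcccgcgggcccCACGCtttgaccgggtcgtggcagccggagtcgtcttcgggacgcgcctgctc
ADM: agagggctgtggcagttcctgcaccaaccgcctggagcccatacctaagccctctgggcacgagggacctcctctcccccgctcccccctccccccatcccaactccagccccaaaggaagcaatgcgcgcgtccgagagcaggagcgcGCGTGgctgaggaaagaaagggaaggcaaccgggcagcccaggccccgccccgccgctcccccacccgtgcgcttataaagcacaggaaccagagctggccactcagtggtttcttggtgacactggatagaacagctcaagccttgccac
ANKRD37: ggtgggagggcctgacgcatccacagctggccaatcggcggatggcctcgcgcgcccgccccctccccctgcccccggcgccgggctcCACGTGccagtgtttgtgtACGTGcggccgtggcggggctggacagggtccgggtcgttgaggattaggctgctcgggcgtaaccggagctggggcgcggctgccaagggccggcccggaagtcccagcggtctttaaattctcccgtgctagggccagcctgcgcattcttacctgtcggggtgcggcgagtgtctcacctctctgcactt

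PLIN2 held 5 matches, ADM 1 and ANKRD37 3. Of the 12 genes, 9 had a promoter in the table and 8 of these held a match; KLF2 held none in this window. Of the 12 genes with the largest difference downwards, 6 had a promoter and 5 held a match. A motif this short was common: 71.8% of 7233 tested genes with a promoter held it in at least 1 window, as did 48.4% of 35116 windows in all. Among tested genes of the hypoxia list it was 20 of 22, and among those of glycolysis 19 of 20. A match describes these letters and shows no binding.

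**Figure D1:**
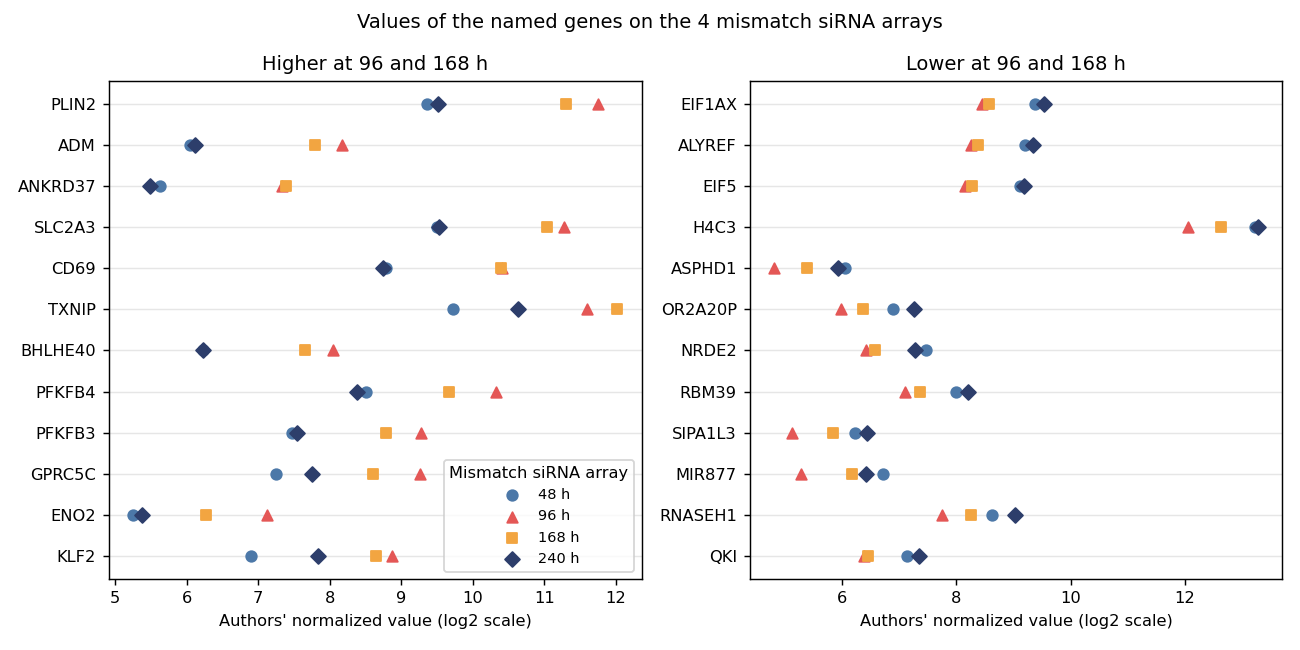
Authors' normalized values (log2 scale) of the 12 genes with the largest difference upwards and the 12 with the largest downwards on the 4 mismatch siRNA arrays; each point is 1 array. In every gene shown the 96 and 168 h points lie on 1 side of the 48 and 240 h points, which is how the genes were chosen.

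Glucose handling supplied 4 of the 12. SLC2A3, the high-affinity glucose transporter GLUT3 (chromosome 12), read 9.50 and 9.53 at the outer times and 11.28 and 11.04 at the mid times, a difference of 1.64. This probe may be shared with SLC2A14, a near-identical copy, which was not checked and leaves the assignment uncertain. PFKFB4 and PFKFB3, which make the fructose bisphosphate that drives phosphofructokinase, stood at 1.55 and 1.52, and a dimmer PFKFB3 probe at 0.71. PFKFB4 read 8.50 and 8.38 against 10.32 and 9.67, and PFKFB3 read 7.48 and 7.54 against 9.28 and 8.78. ENO2, an enolase, was not above background at the outer times (5.25 and 5.37) and was at least 1.74-fold higher at the mid times (7.12 and 6.27). In these 4 genes the 96 h array was the highest, by 0.24 over the 168 h array in SLC2A3 and 0.85 in ENO2.

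The other 5 are regulators and surface proteins. CD69, an activation receptor of leukocytes, read 8.79 and 8.74 at the outer times and 10.40 on both mid arrays, and its second probe stood at 1.45. TXNIP, the glucose-responsive inhibitor of thioredoxin, read 9.72 at 48 h, 11.59 at 96 h, 12.02 at 168 h and 10.63 at 240 h. Its 168 h array was the highest, and 240 h lay 0.90 above 48 h. BHLHE40, a transcriptional repressor, read 6.22 and 6.23 against 8.04 and 7.65. KLF2, a zinc finger factor, read 6.90 and 7.84 against 8.87 and 8.64, a difference of 1.38 that became 0.92 without the 48 h array and 1.85 without the 240 h array. GPRC5C, an orphan receptor, stood at 1.43, and its other tested probe at 0.84.

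The hypoxia list held members with large differences and members with none. Of 29 genes listed 26 were above background on at least 2 of the 8 arrays. With no overlap 18 were higher at the mid times (22.7% of all genes) and 0 lower (23.6% of all genes). In 8 the sides overlapped, and the median difference was 0.57. The 18 include ANKRD37 and LOX, which were above background on mid arrays alone. They entered the count only through the side where they are high. Beside ADM, ANKRD37 and BHLHE40, the list included DDIT4, an inhibitor of mTORC1, at 1.35, with 7.56 and 7.43 at the outer and 9.22 and 8.48 at the mid times. The mitophagy receptors BNIP3 and BNIP3L, named after their values were seen, stood at 1.19 and 1.02. KDM3A, a histone demethylase, stood at 1.20 and P4HA1, a collagen prolyl hydroxylase subunit, at 1.16, both named after their values were seen. HIF1A read 7.02, 7.02, 6.84 and 7.13 over the 4 times, a difference of -0.15 with overlap. VEGFA, a vascular growth factor near background here, stood at 0.15, also with overlap; both were named after their values were seen.

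Most of the list peaked at 96 h. In 23 of 26 genes the 96 h array lay above the 168 h array, against 53.6% of all genes, and the 168 h array lay above the 240 h array in 20 (48.7% of all genes). The list's median deviation from the siMM mean was -0.29, 0.61, 0.11 and -0.30 at 48, 96, 168 and 240 h. BNIP3 read 10.89, 12.14, 11.38 and 10.25, and PLOD2, a collagen lysyl hydroxylase named after its values were seen, read 7.82, 9.41, 8.08 and 7.81. ANKRD37 in contrast was as high at 168 h as at 96 h. The median of the list was 0.35 without the 96 h array and 0.89 without the 168 h array.

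The glycolysis list had a similar pattern. Of 24 genes listed 21 were tested, 19 were higher at the mid times with no overlap (22.7% of all genes), 0 were lower (23.6%), and the median was 0.53. The 19 include ENO2, which was above background on mid arrays alone and entered only through them. The median deviation from the siMM mean was -0.34, 0.44, 0.18 and -0.24 over the 4 times. In 20 of 21 genes the 96 h array was the highest, against 28.8% of all genes. Some of the 19 were barely separated at 168 h. There PFKP, PFKL, HK1 and LDHA lay above the 240 h array by 0.02, 0.02, 0.02 and 0.04. These were named after their values were seen. Beside SLC2A3, PFKFB4, PFKFB3 and ENO2, and named after its values were seen, HK2, a hexokinase, read 8.70 and 8.77 against 9.90 and 9.49. PKM, pyruvate kinase, also named after its values were seen, read 9.60 and 9.70 against 10.75 and 10.27. Among the smallest differences of the list, LDHA, a lactate dehydrogenase subunit, stood at 0.24, PGAM1 at 0.08 and TPI1 at 0.03, the last 2 with overlap. These too were named after their values were seen.

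**Figure D2:**
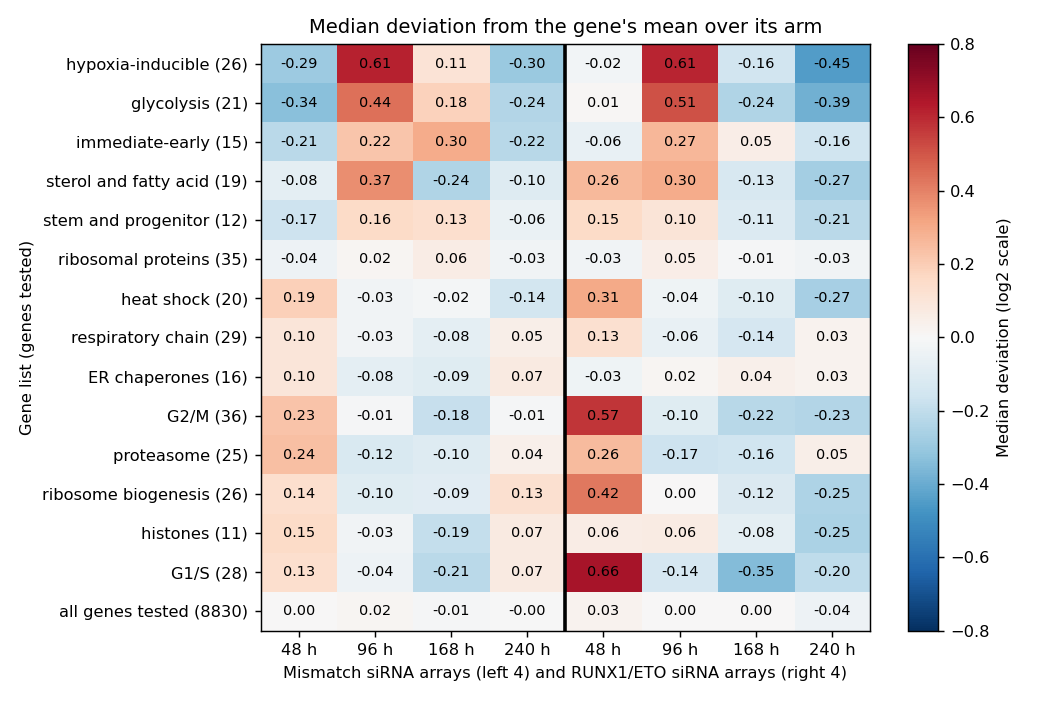
Median deviation of each gene list's tested genes (number in brackets) from the gene's own mean over the 4 arrays of its arm, on the log2 scale, by array; the black line parts the 4 mismatch siRNA arrays from the 4 RUNX1/ETO siRNA arrays. The hypoxia and glycolysis lists stand at 0.61 and 0.44 on the 96 h mismatch array and below 0 at 48 and 240 h.

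Immediate-early genes respond quickly to serum and stress. Of 25 genes listed 15 were tested, 11 were higher with no overlap (22.7% of all genes), 0 lower (23.6%), and the median was 0.48. EGR1, a zinc finger factor, read 6.30 and 5.93 at the outer times and 7.73 and 7.05 at the mid times, and JUN, a subunit of AP-1, read 7.26 and 6.999 against 8.38 and 8.34. SPRY2, a feedback inhibitor of receptor tyrosine kinase signalling, stood at 0.63. DUSP6, a phosphatase of ERK (named after its values were seen), read 10.70, 10.69, 10.40 and 10.27, with 0.06 between mid and outer times. The 96 h array was above the 168 h array in 7 of 15 of these genes, against 53.6% of all genes and 23 of 26 in the hypoxia list. Of 25 NF-kappaB targets and cytokines 11 were tested, with a median of -0.07. With no overlap 3 were higher (22.7% of all genes) and 3 lower (23.6%). CD69 and the chemokine CXCL8, at 0.84, were among the 3 higher.

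The differences downwards were smaller, between -0.82 and -0.95 in the 12 largest. EIF1AX, which helps the ribosome choose the start codon, read 9.38 and 9.54 at the outer and 8.45 and 8.58 at the mid times. Its difference was -0.95, while its other tested probe stood at -0.37. EIF5, its partner in start codon selection, read 9.11 and 9.18 against 8.16 and 8.28, but another EIF5 probe stood at 0.03. ALYREF, an mRNA export adaptor, stood at -0.95, and its second probe at -0.05. H4C3, a histone H4 gene, read 13.23 and 13.29 against 12.06 and 12.63; near-identical H4 copies may share its probe. NRDE2, a nuclear protein, stood at -0.88 and RBM39, a splicing factor, at -0.87. RNASEH1, which cuts RNA in DNA hybrids, and QKI, an RNA-binding regulator of splicing, both stood at -0.82, and all 3 tested QKI probes were lower with no overlap.

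The remaining 4 of the 12 were dim. The probe annotated to the pseudogene OR2A20P read 6.88 and 7.25 at the outer and 5.98 and 6.36 at the mid times. ASPHD1 and SIPA1L3, a GTPase-activating protein, were not above background at the mid times and were at least 1.06-fold and 1.35-fold lower there. The SIPA1L3 difference of -0.85 was -0.49 without the 96 h array. The probe annotated to MIR877, a microRNA gene, read 6.72 and 6.42 against 5.28 and 6.18, with the 96 h array below the cut-off. Its difference of -0.84 was -0.53 with the cut-off as a floor, -0.39 without the 96 h array and -1.29 without the 168 h array.

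In lists of growth and protein turnover the differences were small, and the counts below stand beside 22.7% of all genes higher and 23.6% lower with no overlap. Of 28 tested G1/S and replication genes 18 were lower with no overlap and 0 higher (median -0.24). MCM4, a helicase subunit, read 9.59 and 9.61 against 9.23 and 8.94, and TYMS, thymidylate synthase, 12.16 and 12.18 against 11.54 and 11.80. FEN1, a flap nuclease, and PCNA, the sliding clamp, stood at -0.50 and -0.49. Of 26 tested ribosome biogenesis genes 15 were lower and 1 higher (median -0.21). NOP56, a snoRNP core protein, read 12.01 and 11.94 against 11.27 and 11.20, and MRTO4, a 60S assembly factor, stood at -0.72. Of 25 proteasome subunits 13 were lower and 1 higher (median -0.20), with PSMB3 at -0.67 and PSMC4 at -0.66.

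For the next lists the same shares of all genes apply, 22.7% higher and 23.6% lower with no overlap. G2/M genes had 14 of 36 lower and 1 higher (median -0.15); AURKB, a mitotic kinase, read 7.77 and 7.59 against 7.29 and 6.95, while the list's median deviation was 0.23 at 48 h and -0.01 at 240 h. Respiratory chain and ATP synthase genes had 14 of 29 lower and 1 higher (median -0.12), histones 6 of 11 lower and 0 higher (median -0.21), and ER chaperones 8 of 16 lower and 0 higher (median -0.15). Oxidative stress genes had 9 of 21 lower, with PRDX1, a peroxiredoxin, at -0.62, and 1 higher, which was TXNIP (median -0.06). Cytosolic ribosomal proteins had 15 of 35 higher and 4 lower (median 0.07), with RPL14 at 0.84. Stem and progenitor genes had 5 of 12 higher and 0 lower (median 0.18); KIT, the stem cell factor receptor, read 10.83 and 10.88 against 11.38 and 11.37, and CD34 overlapped.

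The last 8 lists had mixed counts, again beside 22.7% of all genes higher and 23.6% lower. Amino acid stress genes had 7 of 33 higher and 9 lower (median -0.04), with the amino acid transporter SLC7A5 at -0.75 and STC2 at 0.81. Heat shock genes had 3 of 20 higher and 3 lower (median -0.05), p53 targets 4 of 14 and 4 (median -0.01), interferon-induced genes 2 of 12 and 2 (median 0.11), and apoptosis genes 4 of 17 and 6 (median 0.00). Lysosome and autophagy genes had 4 of 26 higher and 5 lower (median 0.01), granule proteins 4 of 18 and 1 (median 0.00), and cytoskeleton and adhesion genes 5 of 17 and 1 (median 0.08). In the granule list AZU1, azurocidin, read 10.80 and 11.53 against 11.70 and 12.09, and LYZ, lysozyme, read 8.49 and 8.59 against 7.60 and 8.01. Of the interferon list, EIF2AK2, the RNA-activated kinase PKR, stood at -0.65.

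The siRE arrays, which did not choose the grouping, were tested for the same contrast with limma. With 2 arrays against 2, 0 of 14644 probes passed at an adjusted p of 0.05 (0%), with the smallest adjusted p at 1, and 378 had an unadjusted p under 0.05 (2.58%). With 4 arrays an exact two-sided permutation test of 1 value could not go below 0.333. The call is therefore that no gene passed, which does not show that the siRE arrays stood still. Changes after knockdown run through the same times and enter the spread of this test.

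The 12 genes that were higher in siMM at the mid times all had a positive fitted difference in siRE, with a median of 1.29 against 0.02 for all genes. For some this rested on the siRE 96 h array. Without that array the difference was -0.19 in SLC2A3, -0.33 in GPRC5C and -0.06 in ENO2. The rest of the 12 stayed positive, with PFKFB3 at 0.01 and PLIN2 at 0.11. ENO2 was above background on 1 siRE array. Of these 12, 6 had an unadjusted p under 0.05, against 1.82% of all genes in that direction (0.68% were lower at that p), and 6 had no overlap between the sides, against 16.1%. ANKRD37 read 5.49 and 5.04 at the outer and 7.30 and 6.22 at the mid times in siRE; with the outer arrays not above background it was at least 1.82-fold higher (limma adjusted p = 1). CD69 read 8.08 and 7.43 against 9.57 and 8.78, a difference of 1.42 (SE 0.34). BHLHE40 read 6.50 and 7.24 against 8.15 and 8.18, a difference of 1.30 (SE 0.30). In PLIN2, SLC2A3, PFKFB4, PFKFB3 and ENO2 the siRE 168 h array lay between the outer arrays. In GPRC5C it lay below both, at 6.55 against 6.91 and 6.86. PLIN2 read 8.78, 10.73, 8.40 and 7.78 at 48, 96, 168 and 240 h. SLC2A3 read 7.62, 9.17, 5.92 and 4.60 there. The median deviation of the 12 genes from their own arm's mean was 1.01 at 96 h and 0.66 at 168 h in siMM. It was 1.16 and -0.16 in siRE; this difference between the arms was not tested.

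**Figure D3:**
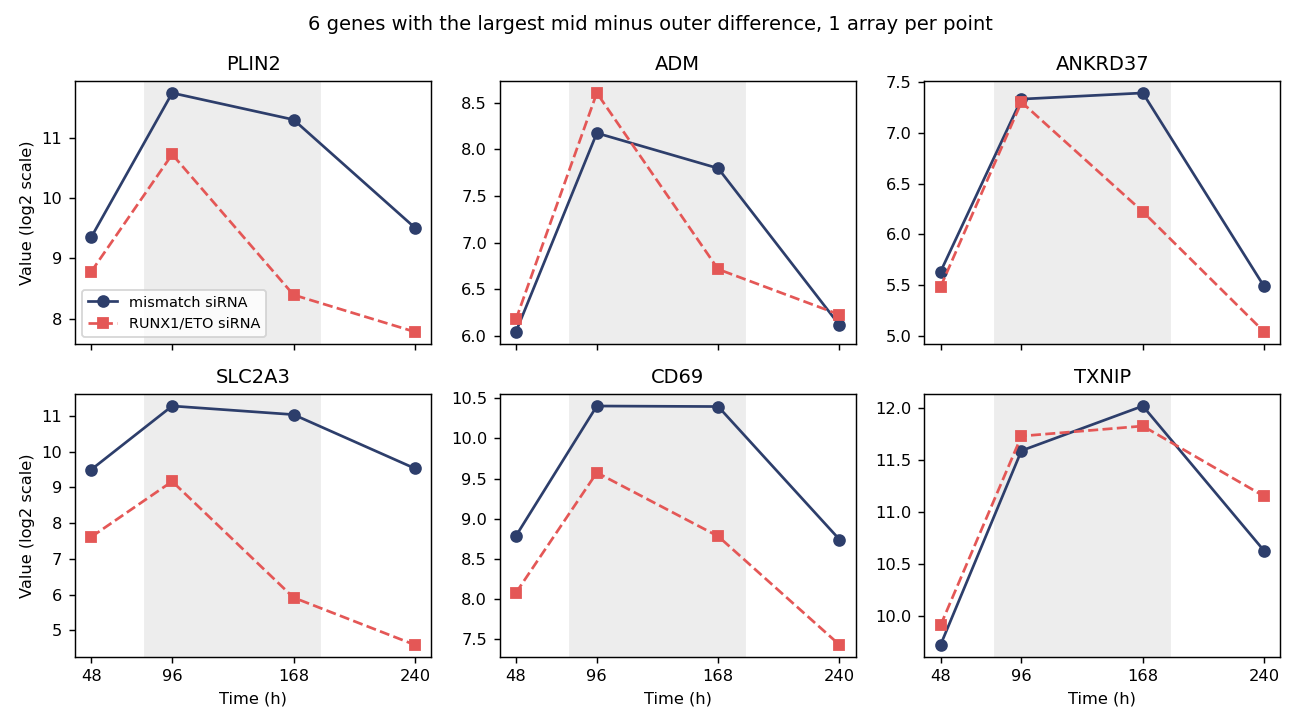
Authors' normalized values (log2 scale) against time in hours for the 6 genes with the largest difference upwards; solid lines join the mismatch siRNA arrays, dashed lines the RUNX1/ETO siRNA arrays, each point is 1 array, and the mid times are shaded. All 6 genes are higher at 96 h than at 48 h in both arms, while PLIN2 and SLC2A3 on the dashed line lie below their 48 h value by 168 h.

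With day entered as a straight-line covariate, an alternative that leaves 1 residual degree of freedom, 102 probes of siRE were higher at the mid times (0.697%) and 32 lower (0.219%) at a limma adjusted p under 0.05. This fit had 1460 prior degrees of freedom, so its error was almost the same for every probe (SE 0.22 for CD69 and for PLIN2) and is borrowed across probes rather than measured for each. In it 8 of the 12 genes passed, against 0.838% of all genes higher: ANKRD37 (limma adjusted p = 2.4e-07, outer arrays not above background), ADM at 1.42, CD69 at 1.37, BHLHE40 at 1.34, PFKFB4 at 1.33, TXNIP at 1.32, SLC2A3 at 1.21 and PLIN2 at 1.18 (limma adjusted p = 0.000123). SLC2A3 was below background on the siRE 240 h array, and without the covariate its difference was 0.79 with the cut-off as a floor. Also without the covariate, the SLC2A3 difference was -0.07 when the 240 h array was left out and -0.19 when the 96 h array was. PFKFB3 (0.72, limma adjusted p = 0.081), KLF2, ENO2 and GPRC5C did not pass. Of the hypoxia list 6 of 26 passed and of glycolysis 3 of 21, all higher, and of the immediate-early list 3 of 15, with JUN at 1.15 (limma adjusted p = 0.00016). These counts are not separate from the 8 genes above. They include ADM, ANKRD37 and BHLHE40 for hypoxia, and SLC2A3 and PFKFB4 for glycolysis. The lists were also chosen with earlier results of these data known. Of the 12 genes lower in siMM, 0 passed in that direction (0.181% of all genes), and the probe annotated to OR2A20P passed in the other.

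The genes lower in siMM were less uniform in siRE, which was not tested as a difference. The median siRE difference of the 12 genes lower in siMM was -0.15, and 8 of them were below 0. EIF5 was the only one of the 12 lower with no overlap in siRE (14.1% of all genes), with 9.11 and 9.15 against 8.40 and 8.83, while EIF1AX read 9.60, 8.55, 8.53 and 8.54 over the 4 times and did not return at 240 h. The median deviation of G1/S genes in siRE was 0.66 at 48 h and -0.14, -0.35 and -0.20 afterwards. In siMM it was 0.13, -0.04, -0.21 and 0.07. MCM4 stood at -0.74 in siRE (SE 0.34, limma adjusted p = 1) and passed with day as a covariate at -0.79 (limma adjusted p = 0.0391).

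**Figure D4:**
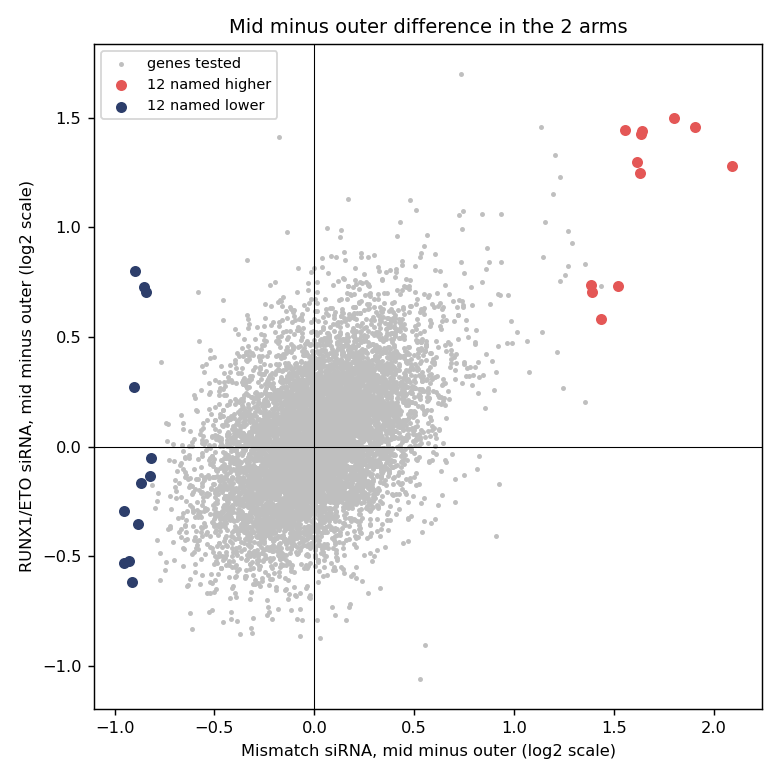
Mid minus outer difference of each of 8830 genes in the mismatch siRNA arm (horizontal axis) and in the RUNX1/ETO siRNA arm (vertical axis), both on the log2 scale, with the 12 named genes higher (red) and the 12 lower (blue). The red points lie above 0 on both axes, and the blue points lie on both sides of 0 on the vertical axis.

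Over 8830 genes the differences in the arms correlated at 0.461 (Pearson) and 0.426 (Spearman). The arms share no array, but they share times, handling and the authors' joint normalization, and genes are not independent. The genes with the smallest p in siRE upwards were LGALS1, the lectin galectin-1, at 1.70 (SE 0.36), BHLHE40, KDM3A at 1.33, CD69, ANKRD37 and SMIM24 at 0.98. In siMM LGALS1 read 6.08 and 6.36 against 6.72 and 7.19, and SMIM24 read 9.39 and 10.08 against 10.99 and 11.02. The smallest p downwards belonged to VN1R2 at -0.91, CCND3, cyclin D3, at -0.87, NDUFB6, a complex I subunit, at -0.85, TIMELESS, a replication fork protein, at -0.86, DYNC2I2 at -0.79 and UQCC2, an assembly factor of complex III, at -0.78. In siMM CCND3 and TIMELESS overlapped between the sides, NDUFB6 stood at -0.37, DYNC2I2 at -0.42 and UQCC2 at -0.31, and VN1R2, whose outer arrays were not above background, was at least 1.20-fold higher at the mid times.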

How the data were processed

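Per the labels' protocols, RNA of 8 Kasumi-1 samples was made into biotinylated cRNA and hybridised to Illumina BeadChips. The deposited values are the authors' normalized table, read here as log2 (3.89 to 14.36); per the submitters' processing notes they used lumi, with settings and version not given in the sources used here, so plain log2 and a variance-stabilised scale cannot be told apart. After sorting, no value differed between arrays by over 0.0235, the mark of a quantile step, and nothing further was applied. Another table (16 per-sample columns) stayed unused because its column names match no label.

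The background cut-off was 5.90: the mode of all values (5.22) plus the 90th percentile of how far values below the mode lie from it. Probes above it on at least 2 of 8 arrays were used, 14644 of 47230. The platform annotation gave 30112 probes 1 symbol, 8 several and 17110 none; 30073 matched RefSeq (GRCh38.p14), and chromosomes are from there. A gene is its probe with the highest mean (8830 genes). A bound sets the dimmer side's arrays to at least the cut-off.

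The siRE contrast was fitted with limma 3.58.1 in R 4.3.3 (Benjamini-Hochberg, threshold 0.05) on the 4 siRE arrays, with 2 residual and 7.33 prior degrees of freedom. On simulated arrays the fit recovered 29% of changes of 1 and 99% of changes of 2 on the log2 scale. There 12 of 140 calls were false. The simulated arrays had independent noise and no trend with time or knockdown, unlike the real ones. No label names separate cultures, so p-values reflect only how these arrays scatter. Members, gene lists (23, plus 2 of markers; 638 genes, 481 tested) and alternatives were chosen with earlier results of these data known. Named are the 12 largest siMM differences each way among genes above background on at least 2 siMM arrays with no overlap, the 6 smallest siRE p-values each way, up to 4 members per list by size of the siMM difference, RUNX1T1 and RUNX1. Other genes, apart from the cell type markers, were named after their values were seen, and the text marks most of them so. The title letters are F and B for the outer and A and G for the mid siMM arrays; their meaning is not stated.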

Additional observations from a re-analysis of the deposited data

Results flagged for a closer look

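4 of the 12 genes lower at the mid times in siMM had the mid times higher with no overlap in siRE, where 16.1% of all genes were, and the difference between the arms was not tested. The probe annotated to OR2A20P stood at -0.90 in siMM and at 0.80 in siRE, where it read 6.32 and 6.40 at the outer times and 7.60 and 6.73 at the mid times, all above background. The other 3 rest on values below background. SIPA1L3 stood at -0.85 in siMM and 0.73 in siRE, and at -0.43 and 0.21 with the cut-off as a floor. The probe annotated to MIR877 stood at -0.84 and 0.70, and at -0.53 and 0.34 with the floor; it was above background on 1 siRE array. ASPHD1 stood at -0.90 and 0.27, and at -0.09 and 0 with the floor; it was above background on 2 siMM arrays and 0 siRE arrays, so its direction in siRE was not measured.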

How the results depend on the processing

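The count of 32 genes higher by 2-fold or more in siMM ranged from 24 to 33 over the filters, the floor, cyclic loess and the day covariate, and from 29 to 53 when each array was left out in turn. The 0 genes lower became 1 with no filter, and 0 to 11 when each array was left out. The median of the hypoxia list ranged from 0.35 to 0.89 and that of glycolysis from 0.45 to 0.74 without 1 array, with no change of direction; the other settings moved neither beyond the spread between arrays. Of the 24 named siMM differences 0 changed sign in any setting. Leaving out an array or using the floor could not change a sign, because the genes were chosen with no overlap. The filters leave the values as they are. For these genes, these settings are therefore no check of direction. In siRE some of the 24 genes did change sign when an array was left out, such as SLC2A3 without the 96 h array. With the cut-off as a floor, ENO2 stood at 0.80, SIPA1L3 at -0.43 and ASPHD1 at -0.09. In siRE 0 probes passed as reported, with no filter, above the cut-off on all 8 arrays, with the floor, cyclic loess, the spread pooled over 8 arrays (917 at an unadjusted p under 0.05), or an intensity trend with a robust prior. The count was 102 higher and 32 lower with day as a covariate. It was 0 to 181 higher and 0 to 65 lower when each array was left out, with calls only without the 48 h or the 240 h array; those fits have 1 residual degree of freedom and a lone outer array assumed to vary like the mid pair. No paired analysis was possible because the mid and outer arrays of an arm are different times with no shared replicate number. The number of arrays limits the precision.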

Other observations

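Genes of sterol and fatty acid synthesis stood high on the siMM 96 h array and not on the 168 h array, a pattern noticed after the values were seen and resting on 1 array. Of 19 tested genes 15 had their highest siMM value at 96 h, against 28.8% of all genes, and the list's median deviation was -0.08, 0.37, -0.24 and -0.10 at 48, 96, 168 and 240 h. HMGCS1, the enzyme that makes HMG-CoA for sterols, read 8.39, 10.47, 8.76 and 8.68, and MSMO1, a sterol oxidase, read 7.61, 9.04, 7.62 and 7.58. SCD, a fatty acid desaturase, read 11.32, 12.50, 11.37 and 11.48, and INSIG1, which holds back the sterol-sensing machinery, read 9.43, 10.33, 9.40 and 9.26. FASN, fatty acid synthase, read 11.46 at 96 h and 11.11 at 240 h. In siRE 9 of the 19 genes were highest at 96 h (22.5% of all genes), and the median deviation there was 0.26 at 48 h and 0.30 at 96 h, so the 48 h array of siRE was not low. With mid and outer times compared, 2 genes of this list were higher with no overlap (22.7% of all genes) and 1 lower (23.6%) in siMM, with a median of 0.23.

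Just below the 12 genes named upwards stood APOBEC3G, a cytidine deaminase that restricts retroviruses, with 7.58 and 7.88 at the outer and 8.91 and 9.26 at the mid times in siMM. Its family has near-identical members, which leaves the probe's assignment uncertain. CD300A, an inhibitory receptor of myeloid cells, read 7.45 and 7.24 against 8.74 and 8.53. Just below the 12 downwards stood USP14, a deubiquitinase of the proteasome, with 9.53 and 9.40 against 8.55 and 8.76. APOBEC3G, CD300A and USP14 were named after their values were seen.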
